A study of Caenorhabditis elegans with 2 samples.

Results

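The proteasome subunit genes of Caenorhabditis elegans are described here by where the transcription factor EFL-1 lay at their promoters. The members are the protein-coding genes whose symbol begins with pas-, pbs-, rpt- or rpn-, and 33 genes met that rule, of 19973 that are protein-coding on the 6 nuclear chromosomes. The proteasome is the protease complex that degrades ubiquitin-tagged proteins. Its core particle is a barrel of alpha rings (pas genes) and beta rings (pbs genes), and the beta rings hold the proteolytic sites inside. The regulatory particle caps the barrel. Its base holds a ring of ATPases (rpt genes) that unfold substrates, with scaffold and ubiquitin-binding subunits, and its lid (other rpn genes) removes the ubiquitin chain. In C. elegans the transcription factor SKN-1 is known to raise proteasome gene expression when proteasome function is impaired. EFL-1 belongs to the E2F family, which is known chiefly for cell-cycle and DNA replication genes.

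The data are ChIP-seq, the sequencing of immunoprecipitated chromatin, from whole worms of the first larval stage (L1), sexes pooled. The samples form a single group of 2 biological replicates, numbered 2 and 3, with no second condition. All worms carried the strain YL418 genotype, unc-119(ed3) on chromosome III with the integrated array vrIs65, in which the ges-1 promoter drives EFL-1 joined to GFP and FLAG with the efl-1 3' untranslated region, beside unc-119(+). That promoter is known for intestinal expression, and which cells held the tagged protein was not stated. The antibody is labelled efl-1, while the sample description names the target as an eGFP-tagged efl-1. A binding level in whole larvae cannot tell few cells with strong binding from many cells with weak binding. The values are the authors' region lists on build ce11. Each region has a signal value on a scale of its own library, and a summit, the position of highest signal. The IDR list holds the 1886 regions past the authors' irreproducible discovery rate threshold, with signals from 24.4 to 2581 and a median of 62.0. Each replicate list holds 30000 regions, many of them weak. Replicate signals are given as multiples of the replicate's own median at IDR peaks, which was 45.8 in replicate 2 and 19.2 in replicate 3. Read depth is unknown, since the lists hold no read counts.

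EFL-1 had an IDR peak in the promoter window of 21 of the 33 proteasome genes, among them the lid protease gene rpn-11, the beta ring gene pbs-1, the alpha ring gene pas-5 and the ATPase gene rpt-1. The window reached 1000 bp upstream and 500 bp downstream of every annotated transcript start. The share was 63.6% (95% Clopper-Pearson interval 45.1 to 79.6%, covering the counting of genes only), beside 11.0% of all protein-coding genes (2200 of 19973). No member is X-linked, and 12.3% of autosomal genes had such a peak. The 21 members had 21 distinct peaks. No test of the list was run, because its members were chosen with earlier results of these data known.

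Short stretches of the summit windows show matches to a degenerate consensus at 8 of these peaks. The SKN-1 consensus, 8 words that end in ATCAT or GTCAT (AATATCAT, AATGTCAT, ATTATCAT, ATTGTCAT, TATATCAT, TATGTCAT, TTTATCAT and TTTGTCAT), was sought on both strands within 100 bp of each summit. It lay at 8 of the 21 proteasome peaks (38.1%), beside 117 of all 1886 IDR peaks (6.2%). The 8 stretches, on build ce11 and on the strand that carries the word, read from the RefSeq genome, are shown 5′ to 3′ with the word in capitals, because their likeness runs past the consensus.
pas-6 (chrV:5584522-5584549, minus strand): actcgcttatTTTGTCATcctttcaaat
pbs-1 (chrIV:1709873-1709900, plus strand): cagaaaaaacATTGTCATcaaatctcaa
rpt-2 (chrV:6017775-6017802, minus strand): gcgcgcttgcATTGTCATcatcaacgct
rpt-4 (chrII:43775-43802, plus strand): cagaattgaaATTGTCATcgtgtccaac
rpt-6 (chrIII:12370250-12370277, plus strand): ctccggttgaAATATCATcatttttaaa
rpn-2 (chrIII:6198866-6198893, minus strand): tgtggtcagaATTGTCATcctccgcgat
rpn-6.1 (chrIII:6961309-6961336, minus strand): gctggcgggaATTGTCATcgtcattgtc
rpn-11 (chrII:4044505-4044532, minus strand): gtaccccgcaATTGTCATcctcacaatt
In 6 of the 8 the word was ATTGTCAT, with TTTGTCAT at pas-6 and AATATCAT at rpt-6. In all 8 the next base was C, beside 36 of the 117 IDR peaks with the consensus, these 8 included. This C was picked from the member sequences, so its count is no test. The words lay between 17 bp (rpt-2) and 84 bp (rpn-6.1) from the summit. Of these 8 peaks, 2 belonged to the core particle and 6 to the regulatory particle. A match is a description of letters and not of bound SKN-1, which was not measured.

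The core particle and the regulatory particle both carried peaks at a majority of their genes. The core particle had 10 of 14 (71.4%, 41.9 to 91.6%) and the regulatory particle 11 of 19 (57.9%, 33.5 to 79.7%). The difference of core minus regulatory was 13.5 percentage points, with a 95% Newcombe interval of -18.7 to 40.9 points. The interval covers the counting of genes only, taken as independent. It spans 0 and is wide at these gene numbers, so neither a difference nor its absence is shown. The direction turned in replicate 2 alone, where 7 of 14 core genes (50%) and 11 of 19 regulatory genes (57.9%) had a summit among the 1886 strongest regions. In replicate 3 alone the counts were 10 of 14 (71.4%) and 10 of 19 (52.6%). By the same rules 10.8% of all protein-coding genes were called in replicate 2 and 10.4% in replicate 3. Within the particles, 5 of 7 alpha ring genes, 5 of 7 beta ring genes, 5 of 6 ATPase genes, 5 of 9 lid genes and 1 of 4 other base genes had an IDR peak.

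**Figure D1:**
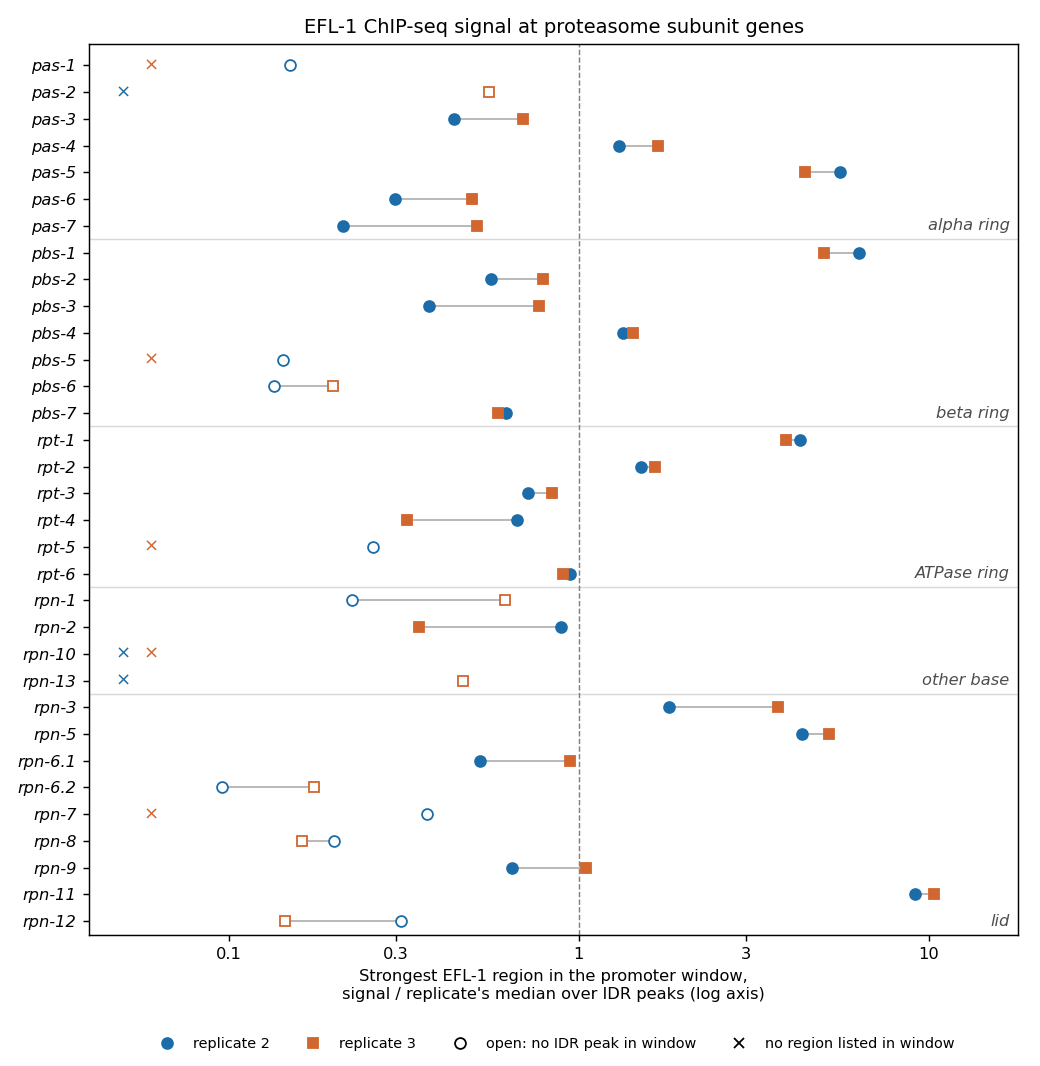
Signal of the strongest region in the promoter window of each of the 33 genes in replicate 2 (circles) and replicate 3 (squares), divided by the replicate's median over the IDR peaks, on a log axis; filled symbols mark the 21 genes with an IDR peak and crosses a replicate with no listed region. The rpn-11 points lie farthest right, at 9.13 and 10.3 times the median, and the dashed line marks the median itself.

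In the alpha ring, the gate and outer ring of the barrel, the strongest peak belonged to pas-5 (WBGene00003926, chromosome I, 10566350 to 10567300). Its region (10565900 to 10566134) had a signal of 255 in replicate 2 and 85.3 in replicate 3, or 5.57 and 4.44 times the median (mean 5.005 ± 0.801, SD, n = 2). It ranked 256 and 319 in the replicates and 274 in the IDR list. The pas-4 peak followed at 1.30 and 1.68 times the median. The pas-3 peak stood at 0.440 and 0.693 times the median in replicates 2 and 3, the pas-6 peak at 0.299 and 0.495, and the pas-7 peak at 0.212 and 0.512. These 3 peaks were weak, and pas-6 and pas-7 ranked 1851 and 1884 of 1886, close to the limit of the list. No IDR summit lay at pas-1 or pas-2. At pas-2 replicate 3 had a region of rank 1609, at 168 bp upstream, and replicate 2 had none in the window.

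In the beta ring pbs-1 led, whose yeast counterpart is a proteolytically active subunit. The pbs-1 region (WBGene00003947, chromosome IV, 1709817 to 1710055) had a signal of 288 in replicate 2 and 96.6 in replicate 3, which is 6.29 and 5.03 times the median (mean 5.66 ± 0.894, SD, n = 2). The replicate summits fell on the same base, 206 bp upstream of the 5' end. The pbs-4 peak reached 1.34 and 1.43 times the median. Below the median in both replicates were pbs-2 (0.561 and 0.791), pbs-7 (0.620 and 0.589) and pbs-3 (0.374 and 0.771). The catalytic-type genes pbs-1 and pbs-2 thus had IDR peaks, while pbs-5, the third of that type in yeast, had none in its window. Its strongest region in replicate 2 ranked 7467, and replicate 3 had none. The pbs-6 window held regions of rank 8586 and 17211.

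Of the ATPase ring genes, which drive unfolding and translocation, rpt-5 alone lacked an IDR peak. The rpt-1 peak (WBGene00004501, chromosome V, 11982422 to 11982617) was the strongest, with signals of 196 in replicate 2 and 75.1 in replicate 3, or 4.29 and 3.91 times the median (mean 4.1 ± 0.271, SD, n = 2). Its summits lay 122 and 121 bp upstream. The rpt-2 peak stood at 1.51 and 1.65 times the median. The rpt-6 peak stood at 0.946 and 0.903 times the median and rpt-3 at 0.716 and 0.837. The rpt-6 window held a further, weaker IDR peak, 769 bp upstream with a pooled signal of 47.6, beside the stronger at 273 bp with 64.0. The rpt-4 peak was 0.668 times the median in replicate 2 and 0.324 times in replicate 3, where it ranked 5152 against 1261. The rpt-5 window had a region of rank 2671 in replicate 2 and none in replicate 3.

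Among the other base subunits only the scaffold gene rpn-2 had an IDR peak, and it was uneven between the replicates. The rpn-2 region (WBGene00004459, chromosome III, 6198709 to 6198992) had a signal of 40.7 in replicate 2 and 6.73 in replicate 3, which is 0.890 and 0.350 times the median (mean 0.620 ± 0.381, SD, n = 2). It ranked 1038 in replicate 2 and 4200 in replicate 3. The other scaffold gene, rpn-1, showed the opposite order, with rank 3125 in replicate 2 and 1412 in replicate 3, and no IDR peak. The ubiquitin receptor gene rpn-13 had a region of rank 2112 in replicate 3 and none in replicate 2. The receptor gene rpn-10 had none in either replicate, and the pooled list alone placed a region of rank 20764 there.

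The lid held the strongest proteasome peak, at rpn-11, which encodes the metalloprotease that cuts ubiquitin from substrates. The rpn-11 region (WBGene00004467, chromosome II, 4044442 to 4044723) had a signal of 418 in replicate 2 and 199 in replicate 3, or 9.13 and 10.3 times the median (mean 9.74 ± 0.855, SD, n = 2). It ranked 119 and 78 in the replicates and 114 in the IDR list, with its summit 35 bp upstream. The rpn-5 peak came next in the lid, at 4.33 and 5.17 times the median (mean 4.75 ± 0.595, SD, n = 2). The rpn-3 peak was 1.82 times the median in replicate 2 and 3.71 times in replicate 3. The peaks of rpn-9 (0.646 and 1.05) and rpn-6.1 (0.524 and 0.942) were weaker in replicate 2. Over the whole complex the replicate values of rpn-11 lay above those of every other member. The replicate ranges of pbs-1, pas-5 and rpn-5 overlapped, so their order is not resolved, and the higher rpt-1 value (4.29) was just under the lower rpn-5 value (4.33). The second rpn-6 gene, rpn-6.2, had regions of rank 18278 and 21213 only. The remaining lid genes without an IDR peak were rpn-7 (rank 1928 in replicate 2, no region in replicate 3), rpn-8 (3739 and 23734) and rpn-12 (2232 and 28174).

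The median signal of proteasome peaks was below that of all promoter peaks. The median IDR signal was 41.6 over the 10 core genes with a peak and 64.0 over the 11 regulatory genes, and 49.0 over all 21, beside 78.4 over all 2200 protein-coding genes with a promoter peak. Among the 1886 strongest regions of replicate 2 the order turned, with a median of 59.7 over 7 core genes and 43.3 over 11 regulatory genes. That limit left out the weak core peaks of pas-6, pas-7 and pbs-3, so the core genes differ from the 10 above. With any listed replicate 2 region counted, the order did not turn. The medians were then 20.1 over 13 core genes and 30.6 over 17 regulatory genes. Among the 1886 strongest regions of replicate 3 the median was 15.0 in the core and 25.9 in the regulatory particle. Of the 21 members, 10 had a peak among the 943 strongest of the IDR list, 4 in the core and 6 in the regulatory particle. That is 10 of 33 members (30.3%), beside 6.48% of all protein-coding genes. With the regions of the pooled list taken in order, 6 core and 11 regulatory genes had a summit among the 1400 strongest, and 10 and 11 among the 1886 strongest. The 4 core genes added between those limits were pas-3, pas-6, pas-7 and pbs-3, picked after their values were seen.

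**Figure D2:**
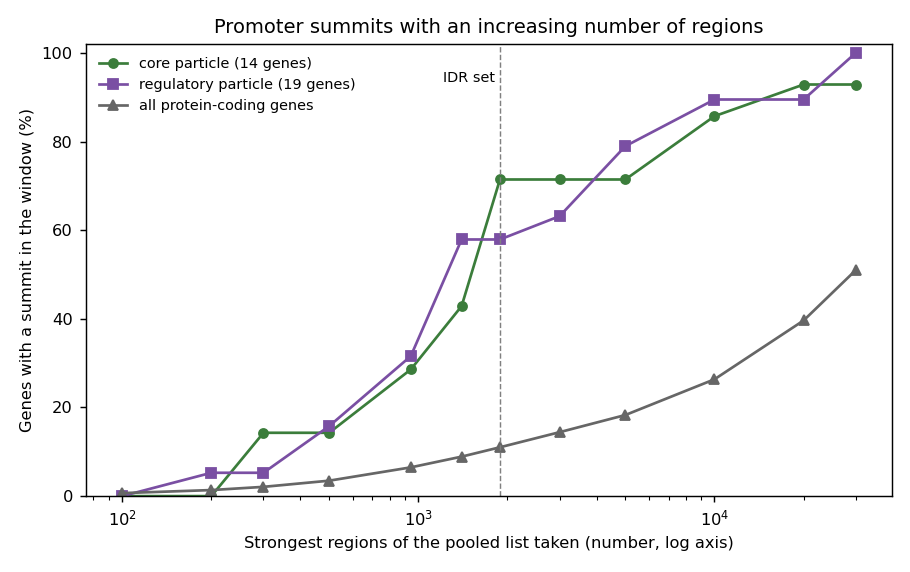
Share of core particle genes, regulatory particle genes and all protein-coding genes with a summit in the promoter window, as more of the strongest pooled regions are taken (log axis). Both particles lie above all protein-coding genes from 300 regions on, and their lines cross: at 1400 regions the shares are 42.9% of core genes, 57.9% of regulatory genes and 8.90% of all genes.

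The replicates can be set side by side at the 21 members with an IDR peak. At all 21 the signal, rank and summit of the IDR peak were those of the strongest pooled region in the window. The IDR list thus draws on both replicates together and is not independent of either. At each member, the strongest window region of replicate 2 and that of replicate 3 overlapped the IDR peak, as a list made from both makes likely. Over all 1886 IDR peaks, 1884 overlapped a replicate 2 region and 1825 a replicate 3 region. The replicate summits lay a median of 12 bp apart (0 to 69 bp), and at the 10 members in the 943 strongest peaks a median of 6 bp. A summit among the 1886 strongest regions of both replicates was found for 16 members (48.5%), beside 8.68% of all protein-coding genes. Not in that set were pas-6, pas-7 and pbs-3, which ranked past 1886 in replicate 2, and pas-6, rpt-4 and rpn-2, which did so in replicate 3. On the scaled values 14 of the 21 members were higher in replicate 3 and 7 in replicate 2. The ratio of replicate 2 to replicate 3 ran from 0.415 to 2.54. With any listed region counted, 30 of 33 members had a summit in replicate 2 (90.9%) and 28 in replicate 3 (84.8%), beside 50.2% and 50.1% of all protein-coding genes. Of the 12 members without an IDR peak, 5 had a listed region in both replicates, 6 in 1 replicate and 1 in neither.

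The summits lay upstream of the proteasome genes, as at most genes with a promoter peak. All 21 were upstream of the nearest annotated 5' end, beside 94.3% of all protein-coding genes with such a peak (2074 of 2200). They lay at 35 bp (rpn-11) to 659 bp (rpt-3), with a median of 176 bp, beside a median of 214 bp over all protein-coding genes with a promoter peak. Within 300 bp upstream were 16 of the 21 (76.2%), beside 60.7% of all those genes. When the window was narrowed to 300 bp before and 100 bp after the 5' end, 16 of 33 members kept a peak (48.5%), beside 7.17% of all protein-coding genes. The core had 8 of 14 and the regulatory particle 8 of 19 by that rule. Many C. elegans transcripts are trans-spliced, so an annotated 5' end can lie downstream of the true transcription start.

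**Figure D3:**
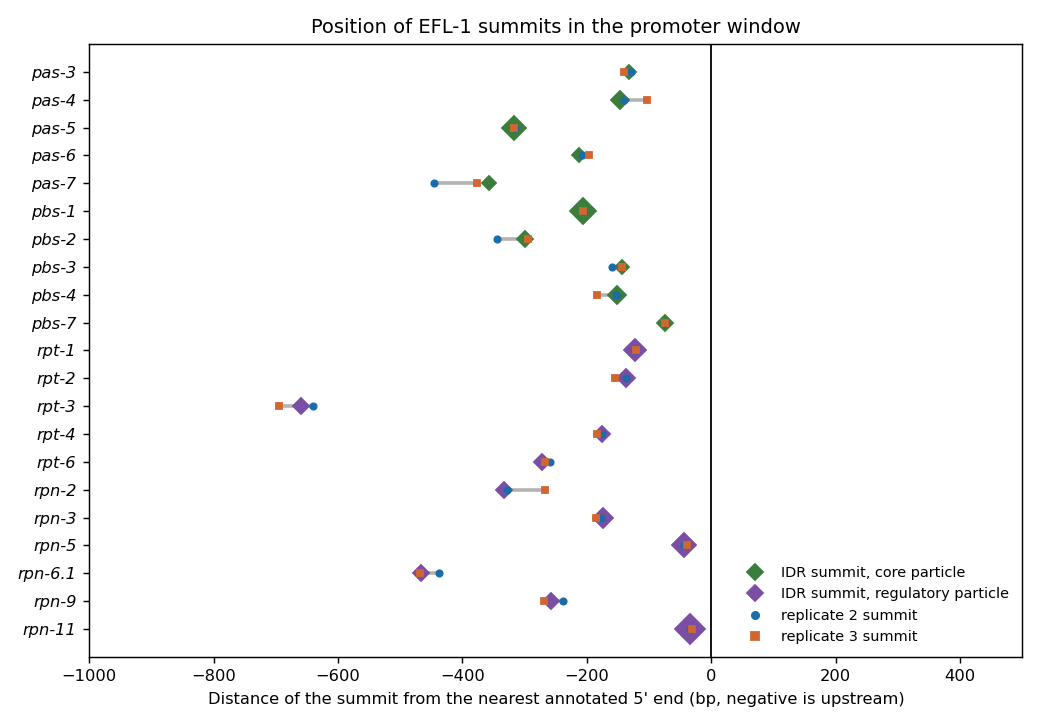
Distance of the IDR summit (diamonds, larger for a higher signal) and of the replicate 2 (circles) and replicate 3 (squares) summits from the nearest annotated 5' end, in bp, for the 21 genes with a peak. Every diamond lies left of the line at 0, from 659 bp upstream at rpt-3 to 35 bp at rpn-11.

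Of the 22 IDR summits in member windows, the extra one of rpt-6 included, 15 fell between annotated genes (68.2%). The share was 77.9% over the 1541 summits in promoter windows of all protein-coding genes and 72.6% over all IDR summits. The pbs-3 summit fell in the 3' untranslated region of the upstream gene ulp-2, whose end lies 23 bp from pbs-3. The rpt-3 summit likewise fell in the 3' untranslated region of chtb-2. The rpt-4 and rpn-6.1 summits fell in introns of those genes, upstream of an inner 5' end. Those of pas-4, pas-7 and rpt-2 fell in exons of non-coding RNA genes.

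Many proteasome genes share their promoter region with a divergent neighbour. A gene on the other strand starts within 1000 bp upstream of 21 of the 33 members (63.6%), beside 17.7% of all protein-coding genes. Members with a divergent neighbour had a peak at 13 of 21 (61.9%), beside 31.9% of all protein-coding genes so placed. Members without one had a peak at 8 of 12 (66.7%), beside 6.52%. The summit also counted for another gene at 14 of the 21 members with a peak (66.7%), close to the 62.8% of all protein-coding genes with a peak (1381 of 2200). At 10 of these the member's 5' end was the nearer. The rpn-5 summit lay 44 bp from rpn-5 and 250 bp from the cohesin gene scc-1, and the rpn-3 summit 174 bp from rpn-3 and 270 bp from the chaperone gene hsp-110. At 4 the other gene was nearer: use-1 at 24 bp from the pas-3 summit, the RNA polymerase II subunit gene rpb-3 at 130 bp from that of pas-4, puf-12 at 99 bp from that of pas-7, and nfyc-1 at 69 bp from that of rpt-4. With each summit given to the nearest gene alone, 17 of 33 members kept a peak (51.5%), beside 7.53% of all protein-coding genes (1503 of 19973). These were 7 of 14 in the core and 10 of 19 in the regulatory particle.

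Some members follow closely behind another gene on their strand, the arrangement of many C. elegans operons. For 8 members such a gene ended no more than 500 bp upstream, and 3 of the 8 had a peak (pbs-3, rpt-3 and rpn-11), beside 8.60% of all protein-coding genes so placed. Of the 25 others 18 had one (72.0%), beside 11.5%. For all 8 the run of same-strand genes was followed to its start, a step added after the data were seen. The start had an IDR peak above pas-1 and pbs-5 alone, which lacked a peak themselves. Over all protein-coding genes 11.0% had one. The pas-1 run began with rrsr-1, which had an IDR peak of signal 43.3 at -303 bp from its 5' end. The pbs-5 run began with K05C4.2, which had one of signal 54.7 at -296 bp. No IDR peak lay at the run starts above rpn-10 (mrpl-9), rpn-13 (C56G2.9) or rpn-6.2 (F59B2.15). Nor did one lie at those above pbs-3 (ulp-2), rpt-3 (chtb-2) or rpn-11 (K07D4.2), which had peaks themselves. Whether these runs are transcribed together was not tested.

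Of the motifs known for E2F complexes, TTTGAA (the cell cycle homology region's core) was at 14 proteasome summits and the E2F consensus at 4. TTTGAA on either strand lay within 100 bp of 14 of 21 summits (66.7%), 7 of 10 in the core and 7 of 11 in the regulatory particle, beside 49.8% of all IDR summits. At the 10 members in the 943 strongest peaks it lay at 8, beside 61.0% of those peaks, and at the other 11 members at 6, beside 38.7% of the weaker peaks. The E2F consensus (TTTCCCGC, TTTCGCGC, TTTGCCGC or TTTGGCGC, either strand) lay at the summits of pas-3, pas-5, pas-6 and rpn-2, 3 of 10 in the core and 1 of 11 in the regulatory particle, beside 12.4% of all IDR summits. The strongest proteasome peak, at rpn-11, had TTTGAA and no E2F consensus, while that at pas-5 had the E2F consensus and no TTTGAA. The stretches of the strongest peaks that hold TTTGAA, and those with the E2F consensus at pas-6 and rpn-2, follow 5′ to 3′ on the gene's strand, with the motif or its reverse complement in capitals.
rpn-11, TTTGAA (chrII:4044611-4044636, minus strand): accttttttaTTTGAAaataaactgt
rpn-5, TTTGAA (chrII:4698494-4698519, minus strand): aaaaatcgttTTCAAAtatttttgtc
pbs-1, TTTGAA (chrIV:1709907-1709932, minus strand): ggagcgccaaTTCAAAcgtcattttt
rpt-1, TTTGAA (chrV:11982452-11982477, minus strand): atcatcaattTTCAAAagagattctc
pas-6, E2F consensus (chrV:5584584-5584611, minus strand): tctttcacttTTTGCCGCcaggtatacg
rpn-2, E2F consensus (chrIII:6198884-6198911, plus strand): tctgaccacaGCGGGAAAccgcgaaatt
These matches lay 43 bp (rpn-11), 36 bp (rpn-5), 31 bp (pbs-1) and 54 bp (rpt-1) from the summit for TTTGAA, and 43 bp (pas-6) and 47 bp (rpn-2) for the E2F consensus. At pas-3 and pas-5, whose stretches are not shown, the E2F consensus lay nearer, at 2 bp and 29 bp from the summit. In whole promoter windows TTTGAA was found at 32 of 33 members (97.0%), beside 99.1% of protein-coding genes. The E2F consensus was in the windows of 7 of 33 members (21.2%), beside 22.3% of protein-coding genes. Among genes with an IDR promoter peak it was in the windows of 5 of 21 members (23.8%), beside 32.3% of protein-coding genes (711 of 2200).

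The SKN-1 consensus was the motif whose share at proteasome summits stood farthest from that at all IDR summits. It lay at 2 of 10 core peaks (pas-6 and pbs-1) and 6 of 11 regulatory peaks (rpt-2, rpt-4, rpt-6, rpn-2, rpn-6.1 and rpn-11), and at 6.36% of the 943 strongest IDR peaks. Members with and without an EFL-1 peak carried the word near their 5' end. From 300 bp upstream to 100 bp downstream it was found at 9 of 21 members with a peak (42.9%) and at 5 of 12 without (41.7%), beside 24.9% of all protein-coding genes. By particle these were 4 of 14 core genes (28.6%) and 10 of 19 regulatory genes (52.6%). In whole promoter windows the order turned, with 11 of 14 core genes (78.6%) and 14 of 19 regulatory genes (73.7%), beside 59.9% of all protein-coding genes. The pas-6 and rpn-2 summit windows held the E2F consensus, TTTGAA and the SKN-1 consensus together.

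**Figure D4:**
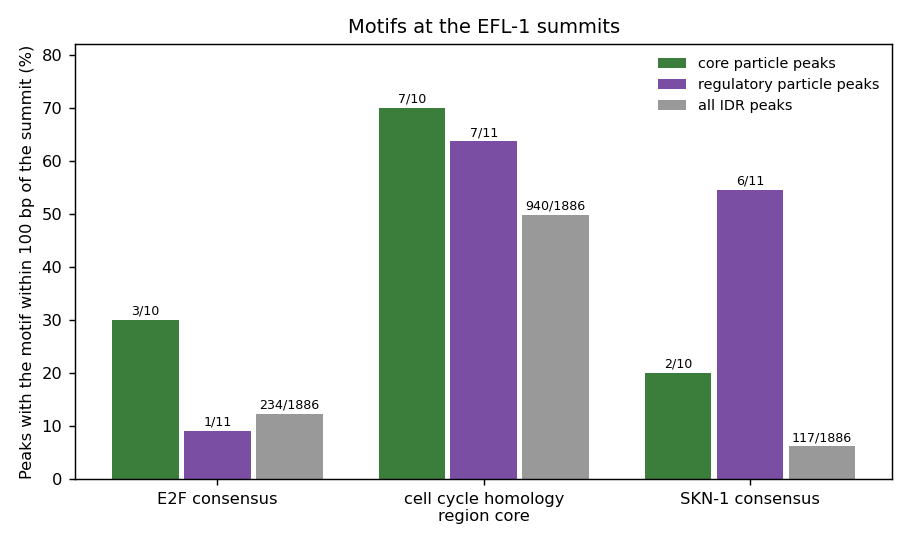
Share of peaks with each motif within 100 bp of the summit, for core particle peaks, regulatory particle peaks and all IDR peaks, with the number of peaks above each bar. The SKN-1 consensus is at 6 of 11 regulatory peaks and 2 of 10 core peaks, against 117 of 1886 peaks in all.

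Genes that work beside the proteasome also carried EFL-1 peaks. Among 10 genes for proteasome-associated factors 5 had an IDR promoter peak, beside the 11.0% of all protein-coding genes. They were led by the deubiquitinase gene usp-14 (signal 79.2 in replicate 2 and 26.3 in replicate 3), the ubiquitin shuttle gene ubql-1 (77.2 and 17.5) and aip-1 (26.7 and 27.1). The rpn-15 counterpart dss-1 and the shuttle gene rad-23 had none. Of 10 genes of the pathway that processes and activates SKN-1, 3 had a peak (30.0%), beside the same 11.0%. They included the segregase gene cdc-48.1, rank 3 of the IDR list, and skn-1 itself (rank 720, 573 bp upstream). Also among them was cdc-48.2 (rank 990, 841 bp upstream), which ranked 859 in replicate 2 and 4915 in replicate 3. The peptidase gene ddi-1 and the deglycosylase gene png-1, which act on SKN-1 in that pathway, had no peak. Of 7 ubiquitin, ubiquitin-like and activating-enzyme genes 3 had a peak (42.9%, beside 11.0%), namely ubl-1, ubq-2 and rfl-1.

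Of 7 matched genes of the COP9 signalosome, a complex related to the lid, 1 had an IDR peak (14.3%), close to the 11.0% of all protein-coding genes. It was csn-1, at rank 1297. An additional written name, csn-8, matched no annotated symbol. The CCT chaperonin, a folding complex, had peaks at 5 of 8 genes (62.5%), with a median signal of 283 over those 5. No test between the lists was run.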

How the data were processed

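ChIP-seq regions were taken from 2 biological replicates of L1 larvae. The region lists are in narrowPeak layout on build ce11. Per notes the authors deposited, each came from the alignments plus 1 more file, which also went into the tracks named as control normalized. For aligner, peak caller and signal scale, nothing is stated in the labels or notes. Column 7 holds the deposited signal value, and column 10 the summit offset. The IDR list is the authors' set derived from the replicate and pooled lists. The ce10 lists were not used.

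Regions were placed on WBcel235 with Ensembl release 115, after a check that every region lies within its chromosome. A gene was called if a summit fell in the window of any of its transcripts. The strongest region in the window gave its value. Sequences are from the RefSeq WBcel235 genome. All counts were made with Python 3.11.15 and intervals with scipy 1.17.1 and statsmodels 0.14.6. Window and motif functions were tested on simulated data. With 1 group and no control samples no test between conditions was possible. The SD over 2 replicates is a rough measure of spread, and the replicates are separate biological samples per the labels.

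The members, gene lists and motifs were chosen with earlier results of these data known. Every member with an IDR peak is named with its values, the strongest of each ring or subcomplex in full, and each context list by at most 3 genes with the strongest peaks, with some that lack a peak named for their role after their values were seen. Alternatives were the 943 strongest IDR peaks, either replicate alone, a narrower window, any overlap, nearest-gene assignment, genes without a same-strand gene upstream, and rpn-6.2 left out. Autosomal, divergent-gene, nearest-gene and between-gene backgrounds were added after the data were seen.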

Additional observations from a re-analysis of the deposited data

How the results depend on the processing

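Of 48 recomputed values (6 values under 8 alternatives), 36 kept their direction and stayed within their interval or replicate spread. Some of the 36 could not change, since rpn-6.2 is a lid gene without a peak and does not enter the core values. Counting any overlap returned the same 6 values. The intervals are wide at these gene numbers, so staying within them is a loose criterion. For the median signals the replicate spread was the SD between the values with replicate 3 and with replicate 2 left out. Those alternatives were thus judged against a spread made from themselves, over sets of called genes that differ. The sign of core minus regulatory turned under 3 alternatives, to -3.01 percentage points among the 943 strongest IDR peaks, -7.89 with replicate 3 left out and -2.63 with each summit given to the nearest gene alone. Leaving out a replicate in turn gave -7.89 to 18.8 points. The same removals gave 54.5 to 60.6% for all members, 50 to 71.4% for the core and 52.6 to 57.9% for the regulatory particle. Among the 943 strongest peaks the shares were 30.3% of all members, 28.6% of the core and 31.6% of the regulatory particle, lower by construction, since fewer peaks enter. The median signal of called members, in multiples of the median over the IDR list, was 0.671 in the core and 1.03 in the regulatory particle. Among the 943 strongest peaks it was 3.46 and 3.43, again by construction. With replicate 3 left out the order turned, to 1.30 over 7 core genes and 0.946 over 11 regulatory genes. That alternative does not call the weak core genes pas-6, pas-7 and pbs-3, so its core median covers fewer genes than the main 10. With replicate 2 left out the median was 0.781 over 10 core genes and 1.35 over 10 regulatory genes. The regulatory median was 2.10 in the narrower window and 1.36 with nearest-gene assignment. Where no construction is named, the cause was not tested. No paired analysis was possible because the study holds a single group. Read depth is unknown, so whether a member without a peak lacks binding or falls below detection cannot be told apart.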

Other observations

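The longer words ATTGTCATC and TTTGTCATC were picked from the member sequences, so that they lie at members is built in and their counts are no test. They lay within 100 bp of 18 of the 1886 IDR summits, and 7 of the 18 belonged to proteasome genes (pas-6, pbs-1, rpt-2, rpt-4, rpn-2, rpn-6.1 and rpn-11). Of the 11 elsewhere, 1 lay at cdc-48.1 (rank 3), 1 at ufd-3 (rank 100) and 1 at usp-14 and vnut-1 (rank 662). Another, at K05C4.2 (rank 1040), is the peak at the start of the same-strand run that leads to pbs-5. The others stood at cdk-1 and iff-1, F16B12.6, nfi-1, hmg-20 and unc-85, and 2 lay in no promoter window. From 300 bp upstream to 100 bp downstream of a 5' end the longer words were found at 7 of 33 proteasome genes (21.2%), beside 2.05% of all protein-coding genes. Among these 7, pas-2 and rpn-1 had no IDR peak, and each had a region among the 1886 strongest of replicate 3. By that replicate 3 rule 10.4% of all protein-coding genes were called. In replicate 2, pas-2 had no region in its window and the rpn-1 region ranked 3125.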
